A study of Homo sapiens with 8 samples.

Results

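The 9 genes described here write, maintain, remove or read DNA methylation in human cells. They were chosen by symbol: the DNA methyltransferases DNMT1, DNMT3A and DNMT3B, their partners UHRF1 and HELLS, the TET dioxygenases TET1, TET2 and TET3, and the methyl-CpG-binding protein MBD2. All 9 were found among the 28265 genes counted, and all 9 were abundant enough to be tested in each of the 6 comparisons made. RNA was measured by factory RNA-Seq, an approach the study uses to profile nascent RNA, in low passage IMR90, a line of human fetal lung fibroblasts. The 4 conditions, with 2 libraries each, were cells without ICM, labelled young and called control here, cells given inflachromene (ICM) for 3 or for 6 days, and cells labelled MetaICM. ICM is a small molecule that binds the chromatin proteins HMGB1 and HMGB2, and the study used it at 10 µM to drive fibroblasts into senescence. What MetaICM stands for, and its dose and duration, are not given in the sources used here, nor is it said whether control cells received solvent. No source says that the 2 libraries of a condition came from separate cultures, so p-values measure the spread between these libraries, which may be technical. All cells came from a single line, and the labels describe the RNA as poly(A)-selected, so that exonic reads of processed mRNA may be part of each value.

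In dividing cells, DNMT1 copies methylation from the parental to the new DNA strand behind the replication fork, guided by UHRF1, which recognizes hemimethylated CpG sites, and helped by HELLS, a nucleosome remodeler. DNMT3A and DNMT3B place methyl groups on unmethylated DNA. The TET enzymes oxidize methylated cytosine and so open the way to its removal, while MBD2 binds methylated CpG sites and recruits the NuRD repressor complex. Loss of methylation at late-replicating regions is a known feature of replicative senescence in IMR90, and DNA methylation itself was not measured in these libraries. In a separate assay, the study followed a few CpG sites that track replicative senescence. It reports that they had no predictive power during ICM treatment.

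The libraries held between 12095123 and 23166405 read pairs on exons, and in all 8 the profile over genes was most alike (highest r) between libraries of the same condition. Levels are given as exonic CPM, the usual count scaled to library size, here with trimmed mean of M values (TMM) factors over all 8 libraries, and differences as the log2 fold change (log2FC) from edgeR's quasi-likelihood test with p-values adjusted by Benjamini-Hochberg over all genes tested. Differential expression required an adjusted p under 0.05 together with an absolute log2FC over 0.6, as in the results of the study. Its methods give an adjusted p of 0.01, which was run as an alternative. All 8 fibroblast markers had at least 921 counts in every library. Scaled to library totals, their summed level was 21409 to 22063 CPM in control, 12735 to 14078 CPM after 3 days, 10547 to 11024 CPM after 6 days and 19129 to 20138 CPM in MetaICM. The 4 epithelial markers together stayed at or below 1.27 CPM and the 3 endothelial markers at or below 4.92 CPM. Of the 3 leukocyte markers CD3E had no counts in any library and PTPRC had 2 to 24, whereas CD68, a lysosomal protein abundant in macrophages, brought the summed level from 4.38 to 5.74 CPM in control to 17.4 to 21.6 CPM after 3 days, 17.9 to 20.7 CPM after 6 days and 12.9 to 13.2 CPM in MetaICM. The part of these markers in the results below was not tested.

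After 3 days of ICM, 6 of the 9 genes were differentially expressed and all 6 were lower: DNMT1, UHRF1, HELLS, DNMT3B, TET1 and TET3. Over all genes tested, 13.2% were lower and 8.85% higher by the same cutoffs. The same 6 were lower after 6 days, against a background of 17.2% lower and 13.3% higher, and none of the 9 was higher at either time point. The median log2FC of the 9 genes was −0.91 after 3 days and −1.46 after 6 days, where that of all genes tested was 0.009 and −0.001. DNMT3A, TET2 and MBD2 were not differentially expressed at either time. Both comparisons share the control libraries, and in bulk RNA fewer cells expressing a gene and less RNA of it per cell cannot be told apart. In separate single-cell data, the study reports DNMT1 mRNA in a cluster of proliferating cells and almost none in ICM-treated cells.

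**Figure D1:**
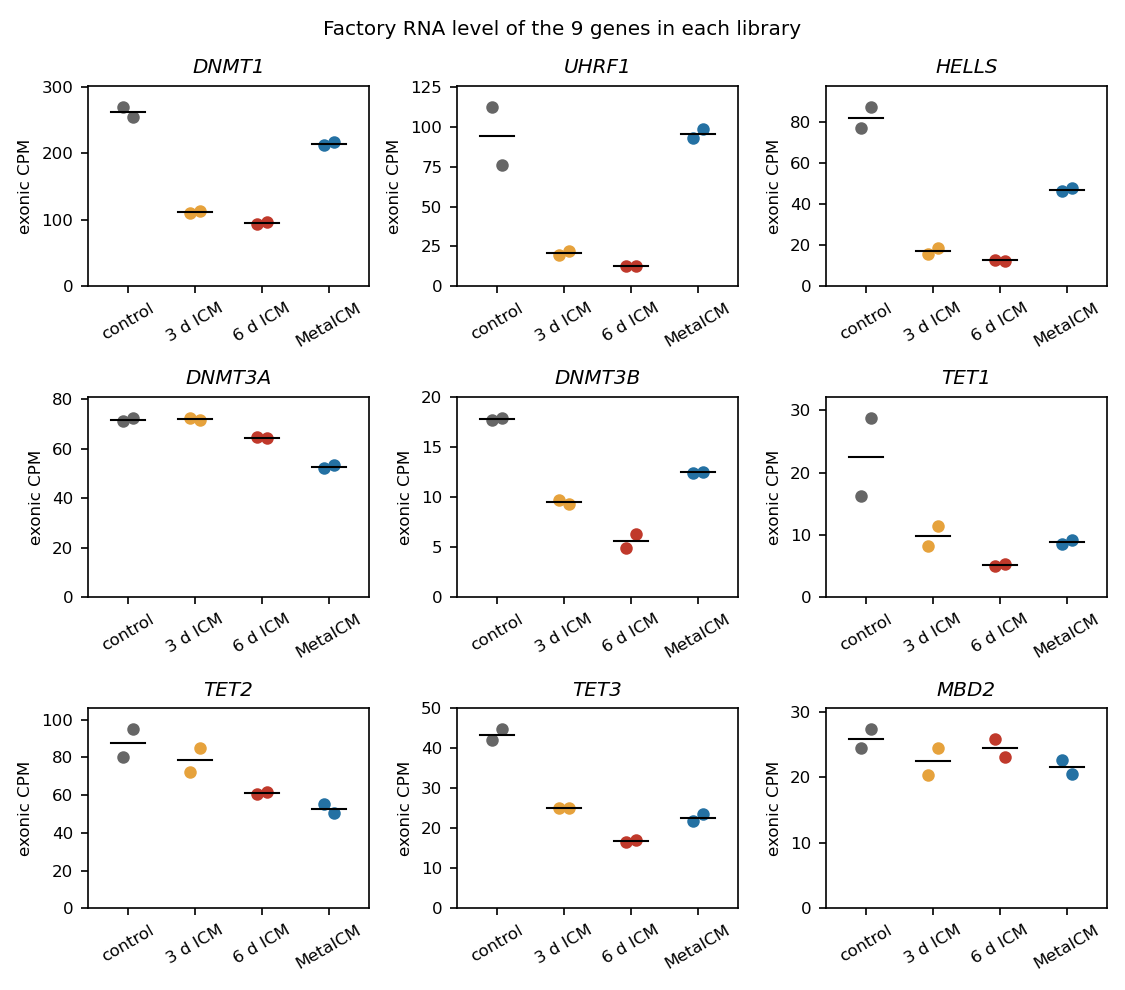
Exonic CPM (y axes, linear and starting at 0) of each of the 9 genes in the 2 libraries of control, 3 days of ICM, 6 days of ICM and MetaICM, with points for libraries and lines for means. DNMT1, UHRF1 and HELLS were low in all 4 ICM libraries and higher in MetaICM, DNMT3A and TET2 were lowest in MetaICM, and MBD2 stayed between 20.3 and 27.3 CPM.

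The 3 genes of methylation maintenance share a feature of promoter sequence that their choice did not use. In the RefSeq promoter windows of GRCh38.p14 (250 bases before to 50 after a start), both strands were searched for the E2F letters TTTCCCGC, TTTCGCGC, TTTGCCGC and TTTGGCGC, a motif of cell cycle genes. They were found in windows of DNMT1, UHRF1 and HELLS and in no window searched for the other 6 genes, in 4 of the 20 windows of all 9. These windows need not cover every start of a gene. Whether the window of DNMT3B lies at the start of the gene as counted was not tested, so its lack of the letters is open. Of all 35116 windows 3.31% held such letters, and of the 27305 genes with a window 3.99% did. The stretches from 150 bases before to 20 after the start are shown because they hold these letters, which are in capitals and, for the reverse strand, appear as their reverse complement. They lie at chr19:10194934-10195103 on the minus strand for DNMT1, chr19:4909351-4909520 on the plus strand for the first of 3 UHRF1 starts and chr10:94545638-94545807 on the plus strand for HELLS.
DNMT1: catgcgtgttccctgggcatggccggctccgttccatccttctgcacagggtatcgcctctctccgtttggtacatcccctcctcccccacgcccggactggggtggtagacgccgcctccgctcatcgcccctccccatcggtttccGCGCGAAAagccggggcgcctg
UHRF1: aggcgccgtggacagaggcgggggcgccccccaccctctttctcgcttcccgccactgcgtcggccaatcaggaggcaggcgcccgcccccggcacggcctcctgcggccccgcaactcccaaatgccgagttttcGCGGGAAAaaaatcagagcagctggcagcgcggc
HELLS: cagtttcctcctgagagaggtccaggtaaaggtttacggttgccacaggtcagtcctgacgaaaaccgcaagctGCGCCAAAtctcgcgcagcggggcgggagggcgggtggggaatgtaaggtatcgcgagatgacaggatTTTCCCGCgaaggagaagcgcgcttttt

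In DNMT1 the letters begin 2 bases before the start and run across it. In UHRF1 they begin 14 bases before the first start, and the window of a second start holds TTTCGCGC on the forward strand 160 bases before it. HELLS holds them at 76 and at 8 bases before its start, without overlap between the pair. With windows cut to 100 bases before the start, the letters remained in all 3 genes and in 1.68% of all windows. TTTGAA, the core of the cell cycle gene homology region, was found on either strand in windows of DNMT3A, TET2 and MBD2, and in 15.2% of all windows and 18.2% of genes. In the shorter windows 1 of these 3 genes kept a match to TTTGAA. DNMT1 and HELLS had 30 and 22 CpG sites in their windows and the 3 UHRF1 windows 36, 40 and 46, where the median of all windows was 14. Windows of other members were as rich in CpG, with up to 46 for DNMT3A, 45 for TET3, 35 for TET2 and 32 for MBD2. The DNMT3B window searched had 3. A match of letters is a description of the sequence and not a bound site.

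DNMT1, the maintenance methyltransferase, lies on chromosome 19 of hg19 from 10244022 to 10305629 on the minus strand and has 5283 exon bases. It received 269 and 254 CPM in the control libraries, 110.5 and 113 CPM after 3 days, 93.2 and 97.3 CPM after 6 days and 212 and 218 CPM in MetaICM. The 4 ICM libraries lay far below the other 4, and no condition overlapped another. DNMT1 fell 2.35-fold after 3 days (log2FC −1.23, standard error 0.12, adjusted p = 1.07e-05) and 2.76-fold after 6 days (log2FC −1.46, standard error 0.11, adjusted p = 3.11e-06). In MetaICM it was −0.29 (95% interval −0.52 to −0.05, adjusted p = 0.0657). The order of DNMT1 levels was thus control, MetaICM, 3 days and 6 days, in which control and MetaICM on one side and the time points on the other did not differ by the cutoffs (log2FC of 6 against 3 days −0.23, adjusted p = 0.0733).

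UHRF1, which brings DNMT1 to hemimethylated sites, lies on chromosome 19 from 4903092 to 4962165 on the plus strand with 5075 exon bases. Its control libraries differed, at 112 and 76.3 CPM, against 19.5 and 21.9 CPM after 3 days, 12.7 and 12.5 CPM after 6 days and 93.3 and 98.4 CPM in MetaICM. ICM libraries were far below every other library, and the MetaICM pair fell between the control pair. UHRF1 fell 4.59-fold after 3 days (log2FC −2.20, standard error 0.18, adjusted p = 2.61e-06) and 7.52-fold after 6 days (log2FC −2.91, standard error 0.18, adjusted p = 9.55e-07), the largest log2FC among the 9 genes at 6 days. MetaICM and control were not told apart, with a log2FC of 0.02 and a 95% interval from −0.33 to 0.37 (adjusted p = 0.945). That value was −0.23 without the second control library (76.3 CPM) and 0.33 without the first, while the fall with ICM stayed between −2.47 and −1.89 after 3 days and between −3.16 and −2.61 after 6 days.

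HELLS, the remodeler that opens nucleosomal DNA to methylation, lies on chromosome 10 from 96305524 to 96361856 on the plus strand with 3346 exon bases. It received 77.2 and 87.1 CPM in control, 15.7 and 18.6 CPM after 3 days, 12.95 and 12.3 CPM after 6 days and 46.3 and 47.9 CPM in MetaICM. No condition overlapped another, and MetaICM stood between control and ICM. HELLS fell 4.82-fold after 3 days (log2FC −2.27, standard error 0.15, adjusted p = 3.98e-07) and 6.52-fold after 6 days (log2FC −2.71, standard error 0.14, adjusted p = 2.21e-07). It was the 1 maintenance gene that was also lower in MetaICM than in control, by 0.80 on the log2 scale (log2FC −0.80, standard error 0.11, adjusted p = 0.00136). Its order was control, MetaICM, 3 days and 6 days, with the last step short of the cutoff on size (log2FC −0.44, adjusted p = 0.0332).

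The de novo methyltransferases went separate ways. DNMT3A, on chromosome 2 from 25450746 to 25565459 on the minus strand with 11177 exon bases, received 71.3 and 72.2 CPM in control, 72.2 and 71.6 CPM after 3 days, 64.5 and 64.4 CPM after 6 days and 52.1 and 53.3 CPM in MetaICM. Control and 3-day libraries overlapped, and the MetaICM libraries were the lowest. The log2FC was 0.00 after 3 days (95% interval −0.27 to 0.27, adjusted p = 0.998) and −0.16 after 6 days (95% interval −0.40 to 0.09, adjusted p = 0.283), so that these intervals leave out the sizes seen for the maintenance genes. In MetaICM it was −0.45 (95% interval −0.69 to −0.21, adjusted p = 0.0137), which passed the cutoff on p but not that on size. DNMT3B, which in development methylates pericentromeric repeats, lies on chromosome 20 from 31350191 to 31397162 on the plus strand with 4630 exon bases. It received 17.8 and 17.9 CPM in control, 9.71 and 9.31 CPM after 3 days, 4.94 and 6.33 CPM after 6 days and 12.5 CPM in both MetaICM libraries, from 92 to 299 counts a library. These groups did not overlap and ran downwards from control over MetaICM and 3 days to 6 days. DNMT3B fell 1.88-fold after 3 days (log2FC −0.91, standard error 0.17, adjusted p = 0.00203) and 3.17-fold after 6 days (log2FC −1.66, standard error 0.18, adjusted p = 5e-05). In MetaICM the log2FC of −0.52 (adjusted p = 0.0229) did not reach the cutoff on size, and neither did that of MetaICM against 3 days (log2FC 0.40, adjusted p = 0.0352), so that these neighbours in the order were not told apart by the cutoffs.

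Among the erasers, TET1 and TET3 passed both cutoffs after ICM, while TET2 passed only that on p, at 6 days. TET1, on chromosome 10 from 70320094 to 70454242 on the plus strand with 9610 exon bases, had unequal control libraries of 16.2 and 28.7 CPM. It received 8.28 and 11.4 CPM after 3 days, 4.94 and 5.26 CPM after 6 days and 8.57 and 9.21 CPM in MetaICM. All 6 other libraries were below both controls, and the 3-day pair enclosed the MetaICM pair. TET1 fell 2.29-fold after 3 days (log2FC −1.19, standard error 0.26, adjusted p = 0.00462), 4.36-fold after 6 days (log2FC −2.13, standard error 0.26, adjusted p = 0.00012) and 2.50-fold in MetaICM (log2FC −1.32, standard error 0.24, adjusted p = 0.0037). The second control library, that with 28.7 CPM, weighed on these sizes: without it the log2FC was −0.75 after 3 days, −1.66 after 6 days and −0.86 in MetaICM, and TET1 remained differentially expressed in each.

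TET2, the most abundant of the erasers per exon length, lies on chromosome 4 from 106067032 to 106200960 on the plus strand with 15321 exon bases. It received 80.3 and 94.8 CPM in control, 72.2 and 84.7 CPM after 3 days, 60.8 and 61.7 CPM after 6 days and 55.0 and 50.7 CPM in MetaICM. Control and 3-day libraries overlapped, and those of 6 days and MetaICM lay below them. The log2FC was −0.16 after 3 days (95% interval −0.47 to 0.14, adjusted p = 0.417) and −0.52 after 6 days (95% interval −0.79 to −0.24, adjusted p = 0.00707), the latter short of the cutoff on size. It passed that cutoff, at −0.64, without the first control library. In MetaICM, TET2 fell by 0.73 on the log2 scale (standard error 0.12, adjusted p = 0.00272), a call that was lost without the second MetaICM library (log2FC −0.66, adjusted p = 0.0642). TET3, on chromosome 2 from 74212037 to 74335302 on the plus strand with 12169 exon bases, received 42.0 and 44.7 CPM in control, 25.2 and 25.1 CPM after 3 days, 16.4 and 17.2 CPM after 6 days and 21.9 and 23.4 CPM in MetaICM. Its replicates lay close together and no condition overlapped another. TET3 fell 1.73-fold after 3 days (log2FC −0.79, standard error 0.14, adjusted p = 0.0013), 2.58-fold after 6 days (log2FC −1.37, standard error 0.13, adjusted p = 2.07e-05) and 1.92-fold in MetaICM (log2FC −0.94, standard error 0.12, adjusted p = 0.000843). From the highest level down, the order of TET3 was control, 3 days, MetaICM and 6 days, with only the first step past both cutoffs, while TET2 ran from control over 3 and 6 days to MetaICM with no single step past them.

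MBD2, the reader, lies on chromosome 18 from 51677978 to 51751039 on the minus strand with 5485 exon bases. It received 24.5 and 27.3 CPM in control, 20.3 and 24.6 CPM after 3 days, 25.9 and 23.1 CPM after 6 days and 22.7 and 20.5 CPM in MetaICM. ICM and control libraries overlapped at both times, and the MetaICM pair lay just below the control pair. None of the 6 comparisons made MBD2 differentially expressed. Against control, the 95% interval of its log2FC ran from −0.56 to 0.14 after 3 days, from −0.39 to 0.23 after 6 days and from −0.56 to 0.03 in MetaICM.

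**Figure D2:**
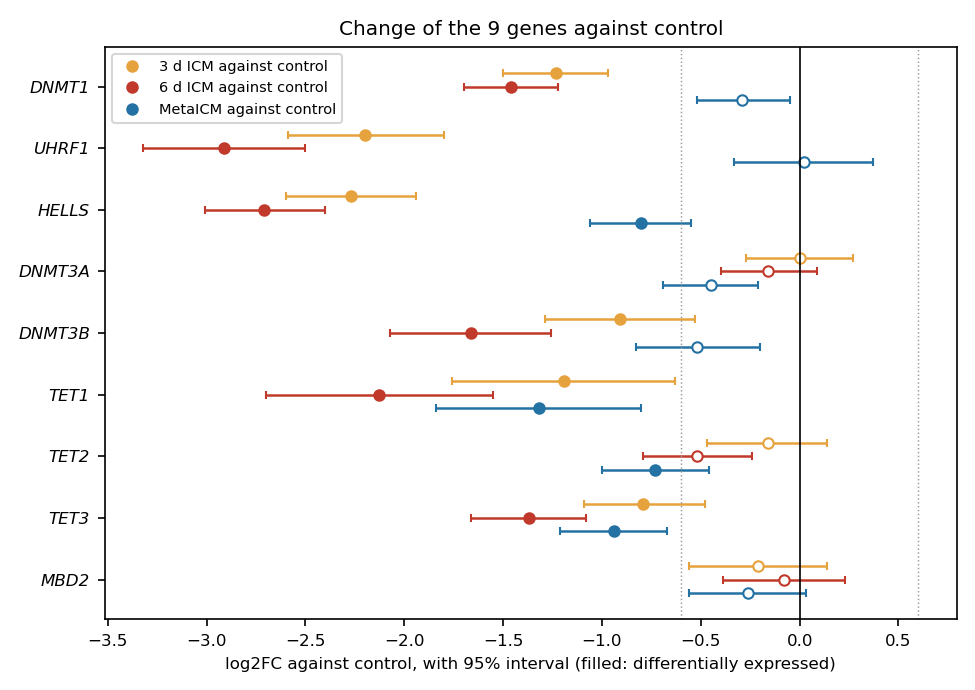
The log2FC of each gene (x axis) against control for 3 days of ICM, 6 days of ICM and MetaICM, with 95% intervals. Filled points are differentially expressed, and dotted lines mark the cutoff of 0.6 in each direction. UHRF1 and HELLS lie furthest left with ICM, at −2.20 to −2.91, and the UHRF1 value for MetaICM is 0.02.

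The time points were compared with each other directly to find where the change went on after day 3. Between 3 and 6 days, 3 of the 9 genes fell further and none rose, where 4.54% of all genes tested were lower and 3.53% higher. UHRF1 fell by another 0.71 on the log2 scale (log2FC −0.71, 95% interval −0.99 to −0.44, adjusted p = 0.000724), DNMT3B by 0.76 (log2FC −0.76, 95% interval −1.15 to −0.37, adjusted p = 0.00654) and TET1 by 0.93 (log2FC −0.93, 95% interval −1.34 to −0.52, adjusted p = 0.00216). The DNMT3B call was lost without the first 6-day library, that with 4.94 CPM (log2FC −0.58, adjusted p = 0.137). TET3 stood just short of the cutoff on size (log2FC −0.58, adjusted p = 0.00183) and passed it, at −0.62, without the second 6-day library. TET2 had a log2FC of −0.36 (adjusted p = 0.0161) and DNMT3A one of −0.16 (adjusted p = 0.246). MBD2, at 0.13 (adjusted p = 0.516), was the only gene of the 9 with a value above 0 in this comparison.

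In MetaICM, 4 of the 9 genes were lower than in control and none higher: HELLS, TET1, TET2 and TET3. Over all genes tested 8.99% were lower and 7.41% higher. All 3 TET genes were thus called and none of the 3 DNMT genes, and a difference between these families was not tested. The count was 3 without the second MetaICM library, where TET2 was not called. The median log2FC of the 9 genes was −0.52, against −0.001 for all genes tested.

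Set against 6 days of ICM, MetaICM had 5 of the 9 genes higher and none lower, where 15.7% of all genes tested were higher and 12.0% lower. UHRF1 was 7.62-fold higher (log2FC 2.93, standard error 0.09, adjusted p = 1.46e-16), HELLS 3.73-fold (log2FC 1.90, adjusted p = 3.63e-13), DNMT1 2.26-fold (log2FC 1.17, adjusted p = 1.19e-11), DNMT3B 2.22-fold (log2FC 1.15, adjusted p = 2.03e-06) and TET1 1.74-fold (log2FC 0.80, adjusted p = 0.000261). TET3, DNMT3A and TET2 passed the cutoff on p without reaching that on size, TET3 above 0 (log2FC 0.43) and the other 2 below (log2FC −0.29 and −0.21). Set against 3 days, only the 3 maintenance genes were higher and none of the 9 lower, where 13.1% of all genes were higher and 10.3% lower. UHRF1 was 4.67-fold, HELLS 2.77-fold and DNMT1 1.93-fold higher (log2FC 2.22, 1.47 and 0.95, adjusted p = 3.89e-10, 7.27e-08 and 2.94e-07). TET2, at a log2FC of −0.56 (adjusted p = 0.000381), came close to being lower, and was so called without the first 3-day library (log2FC −0.68) or without the first MetaICM library (log2FC −0.62). TET1 was at −0.12 (95% interval −0.50 to 0.25, adjusted p = 0.603), and so its level in MetaICM was not told apart from that after 3 days.

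Since exon lengths differ, the 9 genes were set beside each other as CPM per kilobase (kb) of exon. In control, DNMT1 led with 49.6 ± 1.99 CPM per kb (SD, n = 2), above 95.4% of the 16591 genes kept over all libraries, followed by HELLS at 24.5 ± 2.10 and UHRF1 at 18.6 ± 5.0. The other 6 lay much lower and close to each other, from 6.42 ± 0.0564 CPM per kb for DNMT3A over TET2 (5.71 ± 0.668), MBD2 (4.72 ± 0.373), DNMT3B (3.85 ± 0.0165) and TET3 (3.56 ± 0.154) to TET1 at 2.33 ± 0.919. After 6 days DNMT1 still led with 18.0 ± 0.551 CPM per kb, but DNMT3A was second at 5.77 ± 0.00615, ahead of MBD2 (4.47 ± 0.357), TET2 (4.00 ± 0.0415), HELLS (3.77 ± 0.141) and UHRF1 (2.48 ± 0.0261). TET3, DNMT3B and TET1 closed the order with 1.38 ± 0.0424, 1.22 ± 0.211 and 0.531 ± 0.0235 CPM per kb. DNMT1 stood clear of the other 8 in every library.

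Within the methyltransferases, DNMT1 made up 83.3% and 82.3% of the summed CPM per kb in the control libraries, 71.0% and 71.7% after 3 days, 72.1% in both libraries after 6 days and 84.5% and 84.7% in MetaICM. The share of DNMT3A went the other way, from 10.4% and 11.0% in control to 21.9% and 21.5% after 3 days, 23.6% and 22.6% after 6 days and 9.82% and 9.80% in MetaICM. DNMT1 was thus 7.46 to 7.99 times DNMT3A per exon length in control and 3.05 to 3.33 times in the ICM libraries. Within the TET genes, TET2 took 50.5% and 48.2% in control, 61.7% and 63.0% after 3 days, 68.0% and 67.3% after 6 days and 57.2% and 53.4% in MetaICM. TET1 went from 16.2% and 23.2% in control to 8.81% and 9.15% after 6 days. Shares within a family sum to a whole, so that a rise of one can follow from the fall of another.

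**Figure D3:**
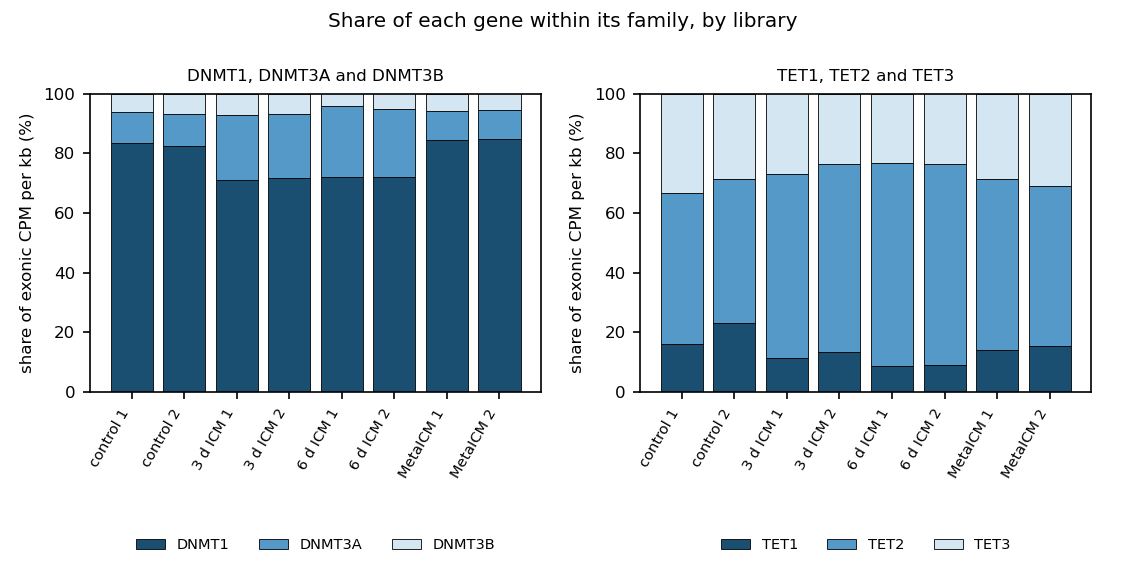
Stacked shares (y axes, % of the family's summed exonic CPM per kb) of DNMT1, DNMT3A and DNMT3B on the left and of TET1, TET2 and TET3 on the right in each of the 8 libraries. DNMT3A takes 21.5% to 23.6% in the ICM libraries and 9.80% to 11.0% elsewhere, and TET2 reaches 68.0% after 6 days.

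Ratios between partners moved too. DNMT1 was 2.30 and 3.20 times UHRF1 per exon length in control, 5.46 and 4.95 times after 3 days, 7.06 and 7.48 times after 6 days and 2.18 and 2.13 times in MetaICM. DNMT3A was 1.66 and 1.67 times DNMT3B in control, 3.08 and 3.19 times after 3 days, 5.41 and 4.22 times after 6 days and 1.73 and 1.76 times in MetaICM. Both ratios were higher in all 4 ICM libraries than in the other 4. The sum of the methyltransferases was 5.89 and 4.55 times that of the TET genes in control, 3.86 and 3.39 times after 3 days, 4.19 and 4.27 times after 6 days and 7.56 and 7.86 times in MetaICM, which was the condition with the highest ratio. These ratios are descriptions and were not tested.

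Over the 8 libraries, the log2 level of DNMT1 followed that of HELLS (Pearson's r = 0.99) and UHRF1 (r = 0.98), and TET1 that of TET3 (r = 0.96). DNMT3A had an r of −0.21 with DNMT1 and of 0.88 with TET2. These 8 points come from 4 conditions with 2 libraries each and share their scaling. Among the 16591 genes kept, those most like DNMT1 were SKA3 (r = 0.999), KIF4A and POLQ (both 0.999), those most like UHRF1 were TCF19 (0.997), MCM5 (0.997) and WWC3 (0.997), and those most like HELLS were AFF3, CIP2A and CORIN (0.998 each). For DNMT3A they were RARRES1 (0.993), PLEKHA5 and PTPRJ, and for DNMT3B HR (0.997), GPR17 and PLEKHG2. TET1 was most like ZNF107 (0.994), RIPOR1 and CASZ1, TET2 like TULP4 (0.993), POMZP3 and ADGRG2, and TET3 like FNBP1L (0.995), FERMT2 and AGPAT4. MBD2 had the lowest such values, with PRRG3 at 0.961, FAM172A at 0.952 and ZNF347 at 0.951.

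The genes of methylation maintenance are used in S phase. From flow cytometry, the study reports an arrest of ICM-treated cells in late S phase, with a larger share there than among solvent-treated cells. How many cells were in S phase was not tested in these libraries. With ICM, markers of cycling cells moved in the same direction as the maintenance genes. Of 12 such markers 11 were lower after 3 days (median log2FC −2.46) and after 6 days (median log2FC −2.73). Of all genes tested, 13.2% were lower after 3 days and 17.2% after 6 days. The markers were led by MKI67, TOP2A and CCNB1 at the earlier and by MKI67, TOP2A and CDK1 at the later time. None of the 12 was at 0 in a condition, and their summed level was 2043 and 2085 CPM in control, 216 and 237 CPM after 3 days, 191 and 197 CPM after 6 days and 1216 and 1227 CPM in MetaICM. PCNA, the sliding clamp of DNA replication that binds DNMT1, was the exception and is also on the list of maintenance partners, with a log2FC of −0.40 after 3 days (adjusted p = 0.0438) and −0.38 after 6 days (adjusted p = 0.0244). In MetaICM 2 of the 12, MKI67 and TOP2A, were lower than in control (median log2FC −0.44), where 8.99% of all genes tested were lower. Against 6 days of ICM, 11 of the 12 were higher in MetaICM, where 15.7% of all genes tested were higher. The part of these markers in the changes of the 9 genes was not tested.

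Other factors of maintenance were mixed. Of 9 listed partners 4 were lower and 1 higher after 3 days, with a median log2FC of −0.40, where 13.2% of all genes were lower and 8.85% higher. After 6 days 3 of the 9 were lower and none higher, with a median of −0.43, where 17.2% of all genes were lower and 13.3% higher. CDCA7, which activates HELLS, had 12.6 and 11.0 CPM in control and 1.47 and 1.42 CPM after 3 days (log2FC −3.03, adjusted p = 2.93e-06), and it was still lower after 6 days (log2FC −2.68, adjusted p = 7.92e-06). PCLAF, a PCNA-bound protein that UHRF1 ubiquitylates, fell at both times (log2FC −2.62 and −2.56, adjusted p = 2.21e-05 and 0.000128). LIG1, the replicative DNA ligase that is itself bound by UHRF1, fell likewise (log2FC −1.04 and −1.66, adjusted p = 0.000489 and 2.23e-05). DMAP1, a DNMT1-binding repressor, rose after 3 days (log2FC 0.61, adjusted p = 0.0111). None of the 9 partners was differentially expressed in MetaICM, where 8.99% of all genes tested were lower and 7.41% higher. This count is near those shares and is no result about the list. CDCA7 had 9.81 and 11.7 CPM in MetaICM.

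Of the partners of de novo methylation, 3 were abundant enough to be tested. NSD2, a histone methyltransferase whose mark is read by DNMT3A, fell after 3 and after 6 days (log2FC −1.85 and −2.07, adjusted p = 6.14e-07 and 3.78e-07), from 208 and 221 CPM in control to 50.9 and 51.7 CPM. SETD2, which sets the mark read by DNMT3B in gene bodies, was lower in MetaICM (log2FC −0.71, adjusted p = 0.00196). After 6 days it fell just short of the cutoff on size (log2FC −0.57, adjusted p = 0.00239). MetaICM and 6 days did not differ by the cutoffs (log2FC −0.14, adjusted p = 0.11). Of 16 tested genes of demethylation, which include base excision repair and the supply of TET cofactor, 2 were higher and 1 lower at each time point, with medians of 0.00 and −0.16. These counts are near or below the shares over all genes (8.85% higher and 13.2% lower after 3 days, 13.3% and 17.2% after 6 days) and are no result about the list. IDH1, which makes the α-ketoglutarate that TET enzymes use, rose from 98.0 and 100 CPM in control to 263 and 250 CPM after 3 days and 319 and 328 CPM after 6 days (log2FC 1.37 and 1.70, adjusted p = 5.16e-06 and 1.03e-06). In MetaICM IDH1 had 117 CPM in both libraries (log2FC 0.24, adjusted p = 0.112). SMUG1, a uracil glycosylase, rose (log2FC 0.79 and 0.65, adjusted p = 0.0094 and 0.0126), and PARP1, a sensor of DNA breaks, fell (log2FC −1.05 and −0.96, adjusted p = 0.000304 and 0.00061). In MetaICM none of the 16 was differentially expressed, a count near the shares over all genes (8.99% lower and 7.41% higher).

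**Figure D4:**
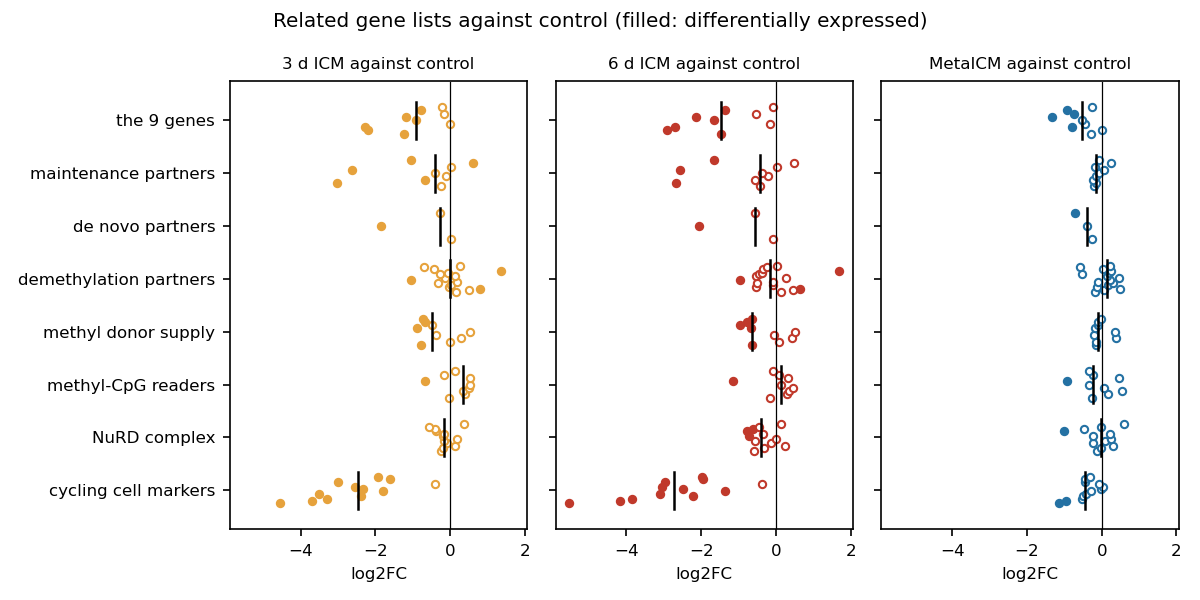
The log2FC against control (x axes) of the 9 genes and of 7 lists of related genes, 1 point a gene, for 3 days of ICM, 6 days of ICM and MetaICM. Filled points are differentially expressed and bars are medians. The cycling cell markers lie furthest left with ICM, at medians of −2.46 and −2.73, and near −0.44 in MetaICM.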

How the data were processed

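The 9 genes and the lists of related genes were chosen with earlier results of these data known. For each library, the authors deposited raw counts of read pairs per RefSeq gene on hg19 (GRCh37), made with STAR 2.6.0c and featureCounts 1.6.3. Per the file headers, pairs with both ends mapped were counted on exons without regard to strand, and reads on several places or genes were not counted. No exon base of the 9 genes is shared with another gene. The study's own nascent values rest on intronic reads, which were not analysed here.

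Conditions were compared 2 at a time with edgeR 4.0.16 (R 4.3.3): TMM, filterByExpr at 10 counts and quasi-likelihood tests, with adjustment by Benjamini-Hochberg, at an adjusted p of 0.05 and a log2FC of 0.6. Precision is limited by 2 libraries per condition and by 12095123 to 23166405 pairs each. Standard errors and 95% intervals come from the test. The genes named are the 9, from each list up to 3 differentially expressed genes of largest log2FC per direction and comparison (and any that was so in all comparisons with control), and the 3 most like each of the 9 by Pearson's r of log2(CPM + 0.5). PCNA, CTAG2, CD68, PTPRC and the genes at 0 were named after their values were seen. All 85 list entries were found. Promoter sequences are from RefSeq (GRCh38.p14, 9 of 9 genes matched), a build other than that of the counts. The alternatives were DESeq2 1.42.0, 3 other scalings, 2 other filters, all 8 libraries in one fit, a replicate block, libraries thinned to 12095123 pairs, an adjusted p of 0.01 and each library left out. The fits were tested on simulated data.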

Additional observations from a re-analysis of the deposited data

Results flagged for a closer look

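For 3 of the 9 genes the effect of ICM differed between the time points by both cutoffs. The direct test was that of 6 against 3 days with edgeR, where 4.54% of all genes tested were lower and 3.53% higher. HELLS, TET2 and TET3 passed the cutoff on p but not that on size (log2FC −0.44, −0.36 and −0.58). The log2FC of 6 against 3 days was −0.71 for UHRF1 (adjusted p = 0.000724), −0.76 for DNMT3B (adjusted p = 0.00654) and −0.93 for TET1 (adjusted p = 0.00216), with each of the later libraries below each of the earlier ones. Without the first 6-day library the value of DNMT3B was no longer differentially expressed (log2FC −0.58, adjusted p = 0.137 from edgeR). With 2 libraries per condition, a check for single outlying libraries was not possible.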

How the results depend on the processing

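The numbers of the 9 genes called higher or lower were within 1.5 times their reported values in 121 of 122 values over the other settings and in 46 of 48 without 1 library. In MetaICM against 3 days the number lower was 1 (TET2, log2FC −0.62) instead of 0 when scaled to library totals, and went from 0 to 1 over the leave-one-out values. Leaving out each library, 6 to 6 genes were lower after 3 days, 6 to 7 after 6 days, 3 to 4 in MetaICM and 2 to 4 from 3 to 6 days, and MetaICM had 5 to 5 higher than 6 days and 3 to 3 higher than 3 days. Where a condition kept 1 library, it was assumed to vary like the other. Of single log2FC, 542 of 549 kept direction and call in the other settings and 199 of 216 without 1 library. Signs turned only for values near 0: DNMT3A after 3 days (0.000599 as reported) was −0.00764 with DESeq2, −0.00765 with its size factors, −1.39e-05 with upper-quartile factors, −0.00414 with at least 10 counts in every library and −0.0184 to 0.026 without 1 library, and UHRF1 in MetaICM was −0.000141 with upper-quartile factors and −0.228 to 0.331 without 1 library. MBD2 ranged from −0.169 to 0.00374 after 6 days, from −0.000834 to 0.256 between 3 and 6 days and from −0.184 to 0.0869 in MetaICM against 3 days, where TET1 ranged from −0.354 to 0.106. TET3 between 3 and 6 days passed the cutoff at −0.613 with library totals. The cause was not tested.

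Of the counts over the related lists, 183 of 192 stayed within 1.5 times, and no scaling moved the median of all genes by more than 0.077. None of these scalings can show a change in RNA per cell that all genes share. The replicate numbers were not taken as pairs. Correlations of the differences between replicates ran from −0.145 to 0.242, which cannot settle whether the samples are paired. The replicate block left 6 genes lower after 3 days, 6 after 6 days, 4 in MetaICM and 3 between the time points and changed no call, and a crossed block, chosen after seeing the data, left 3 higher and 0 lower in MetaICM against 3 days. With 2 libraries per condition and some genes near 100 counts, small differences could not be resolved.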

Other observations

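Genes that supply methyl groups were lower with ICM. Of 9 tested, 4 were lower after 3 days (MTHFD1, MAT2A, NNMT and SHMT2, log2FC −0.88 to −0.66, median of the 9 tested −0.47) and 5 after 6 days, among them SHMT1 (log2FC −0.96), with a median of −0.64, and none in MetaICM, all by edgeR with Benjamini-Hochberg adjustment. Over all genes tested 13.2% were lower after 3 days, 17.2% after 6 days and 8.99% in MetaICM. The count of none in MetaICM is near its share. MAT2A, which makes the methyl donor S-adenosylmethionine, had 306 and 309 CPM in control, 180 CPM in both 3-day libraries, 197 and 200 CPM after 6 days and 276 and 275 CPM in MetaICM. NNMT, which consumes the same donor, was also lower, with log2FC −0.73 and −0.65. The median of all genes tested was 0.009 after 3 days and −0.001 after 6 days.

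Among 9 other genes, listed as readers of methylated CpG or as relatives of readers, 1 was differentially expressed against control. That share was near that of all genes (13.2% lower after 3 days, 17.2% after 6 days and 8.99% in MetaICM). MBD6, which carries the domain that names this family, was lower after 3 days (log2FC −0.66, adjusted p = 0.0427 from edgeR), after 6 days (log2FC −1.14, adjusted p = 0.00251) and in MetaICM (log2FC −0.93, adjusted p = 0.011). However, its control libraries differed, at 20.7 and 35.3 CPM. Its call after 3 days was lost with library totals, under which 1 other gene of this list was higher after 3 days. Of 12 subunits of NuRD none was differentially expressed after 3 days, 3 were lower after 6 days (GATAD2B, MTA3 and RBBP4, log2FC −0.77 to −0.61) and 1 in MetaICM (GATAD2B, log2FC −1.0). Of all genes 13.2% were lower after 3 days, 17.2% after 6 days and 8.99% in MetaICM. GATAD2B too had unequal controls of 27.5 and 49.1 CPM.

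Of 12 germline genes that DNA methylation keeps silent in somatic cells, DAZL, MAGEA3 and MAGEA4 had no counts in any of the 8 libraries, and the summed level of all 12 stayed between 3.86 and 6.00 CPM, most of it from SYCP3 and CTAG2. SYCP3 had 2.62 and 3.98 CPM in control and 1.88 and 1.52 CPM in MetaICM (log2FC −0.94, adjusted p = 0.0453 from edgeR), a call that was lost with library totals and with all 8 libraries in one fit. Only SYCP3 and CTAG2 were abundant enough to be tested against control, and neither was higher by the cutoffs used. Reads on several places were not counted, so that a gene without counts need not be without RNA.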
